A study of Mus musculus with 24 samples.

Results

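Arginine, nitric oxide and polyamine metabolism is represented here by 7 mouse genes, *Nos2*, *Gch1*, *Slc7a2*, *Slc7a1*, *Ass1*, *Asl* and *Odc1*, which are 7 of the 24411 genes in the deposited tables. They were chosen by name as genes of this pathway, with earlier results of these data known, and which of their values entered the choice is not recorded. Their changes with activation in wild-type (WT) cultures, and the difference between those changes in microglia and astrocytes, are therefore a description with no test. For the comparisons between genotypes, and for the difference in the astrocyte response between genotypes, p-values adjusted over all genes are given. Those contrasts may have entered the choice too, so these p-values describe single genes and support no statement about the 7 as a group.

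RNA of cultured mouse astrocytes and microglia was sequenced in bulk, so each value counts fragments of a gene in a whole culture, and SOD1G93A cells were compared with WT cells in the quiescent or activated state. SOD1G93A mice carry a mutant human *SOD1* transgene under the human *SOD1* promoter and are a model of amyotrophic lateral sclerosis, and the line had been bred into C57BL/6J. The values are from 21 libraries, with 3 replicates for each of 7 conditions. A further 3 samples, SOD1G93A microglia without LPS, were not analysed here.

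Astrocytes came from forebrains of mice at postnatal day 5. They were isolated by panning against CD45, a lectin and O4, to remove microglia, endothelial cells and oligodendrocyte lineage cells, and then for HepaCAM, an astrocyte surface protein. They were kept without serum with 5 ng/ml HBEGF. WT and SOD1G93A astrocytes were either quiescent, given phosphate-buffered saline (PBS), or activated with a mix of the complement protein C1q (400 ng/ml), TNFα (30 ng/ml) and IL-1α (3 ng/ml). Microglia came from whole brains at postnatal days 7 to 10 and were collected with CD11b beads. The mice had been perfused first, to wash out macrophages and monocytes of the blood. They were kept in another serum-free medium with TGF-β2 at 2 ng/ml and IL-34 at 100 ng/ml. WT microglia were quiescent (PBS) or activated with lipopolysaccharide (LPS) at 50 ng/ml, and SOD1G93A microglia were activated with LPS at that dose. The transgene is not limited to 1 cell type, so other cells of the brains from which these cultures came carried it too. Time of treatment and the number of animals behind each culture are not in the labels, so p-values here measure only the spread between these libraries.

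Arginine enters cells mostly through the cationic amino acid transporters encoded by *Slc7a1* and *Slc7a2*, and several enzymes then compete for it. Inducible nitric oxide synthase (*Nos2*), with tetrahydrobiopterin as a cofactor (*Gch1* encodes the first enzyme of its synthesis), turns it into nitric oxide and citrulline, which *Ass1* and *Asl* return to arginine. *Odc1* turns ornithine into putrescine, the first polyamine, and nitric oxide from microglia is a well-known product of inflammatory activation.

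Depth was 2016139 to 11570122 reads counted on genes per library, with a median of 5098168. Values within a comparison are normalized counts, that is, reads divided by a size factor of that library, as deposited. A gene was tested with limma where its mean over the 6 libraries was at least 10, on log2(normalized count + 1), and called where the adjusted p was under 0.001 and the change over 2-fold. A looser rule, an adjusted p under 0.05, is named where used. Intervals are 95% intervals.

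Some libraries stood apart from their own group. In SOD1G93A LPS microglia the mean correlation across 9833 genes with the other replicates was 0.988 for replicate 1, 0.987 for replicate 2 and 0.981 for replicate 3, while replicate 3 had the highest mean correlation of these 3 with the other microglia groups, 0.934. The chi-square per degree of freedom between replicates was 2.41 for replicates 1 and 2, but 16.8 and 21.7 for the pairs with replicate 3. In WT LPS microglia it was 15.05 and 13.8 for the pairs with replicate 1 and 1.65 for the other pair. In quiescent astrocytes the pairs with WT replicate 3 gave 9.45 and 6.82, and those with SOD1G93A replicate 1 gave 6.77 and 10.4. The mean correlation with the other replicates did not single out these astrocyte libraries. It was 0.979 and 0.978 for WT replicates 1 and 3, and 0.986 and 0.985 for SOD1G93A replicates 1 and 3. The chi-square was computed on reads, so for the same spread it grows with depth. WT LPS microglia replicate 1 (8121620 reads), quiescent WT astrocyte replicate 3 (9258718) and quiescent SOD1G93A astrocyte replicate 1 (9526331) were the deepest of their groups. SOD1G93A LPS microglia replicate 3 (4042840) was the shallowest of its group. The part of depth was not tested. Some results below are also given without the libraries that the chi-square set apart. Whether the label of SOD1G93A LPS microglia replicate 3 is right was not tested.

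The cultures carried the markers of their labels. Summed over 18 microglia markers, the level in quiescent WT microglia had a lowest, median and highest library of 24006, 24458 and 24501 reads per 1000000 (CPM), with *Laptm5* the most abundant. With LPS the sums were 11364, 11457 and 13087 CPM in WT and 12860, 13571 and 14018 CPM in SOD1G93A microglia, with *Fcer1g* the most abundant. Astrocyte cultures held 235, 347 and 442 CPM of this list in the WT quiescent group, 257, 288 and 472 in the WT activated group, 360, 538 and 548 in the SOD1G93A quiescent group and 245, 273 and 367 in the SOD1G93A activated group. All 18 genes had reads there. Summed over 12 astrocyte markers, led by *Slc1a3*, the astrocyte libraries held 4185 to 5362 CPM in the WT quiescent, 3714 to 3871 in the WT activated, 3396 to 4353 in the SOD1G93A quiescent and 3767 to 3838 in the SOD1G93A activated group. Of 11 tested with activation of WT astrocytes 3 were called lower, with a median log2 fold change of -0.81. The microglia libraries held 172 to 337 CPM.

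Markers of other cells moved with activation in some lists. Of 8 genes of border macrophages and monocytes, the sum was 50.8 to 51.8 CPM in quiescent WT microglia, 240 to 329 CPM with LPS and 182 to 268 CPM in SOD1G93A LPS microglia. *Ms4a7* made up most of it, *Lyve1* had no reads in the 9 microglia libraries and *Cd163* had none in the 6 WT libraries. In astrocytes that list never passed 3.73 CPM. The 8 endothelial markers went from 8.14 to 12.03 CPM in quiescent to 113 to 130 CPM in activated WT astrocytes through *Flt1* (mean 118 CPM), while *Cldn5* and *Cdh5* had no reads in the activated group. The 10 oligodendrocyte lineage markers, led by *Olig1*, were 2345 to 2415 CPM in quiescent and 876 to 892 CPM in activated WT astrocytes, and *Mog* had no reads in the quiescent group. The 8 neuronal markers, nearly all *Map2*, were 639 to 804 CPM and 334 to 387 CPM in these groups, but without *Map2* the sum went up, from 16.5 to 20.3 CPM to 45.5 to 53.4 CPM, and of 6 tested 3 were called higher and 1 lower. The 8 pericyte and fibroblast markers, led by *Cspg4*, were 42.9 to 78.0 and 94.6 to 103 CPM. *Cspg4* itself had means of 50.9 and 55.9 CPM, and the other markers of that list went from 8.10 to 15.7 CPM to 39.7 to 47.6 CPM, most of all *Lum* (mean 0.361 to 17.7 CPM). *Cspg4* also led that list in microglia, at a mean of 1478 CPM in quiescent WT, 87.5 with LPS and 190 in SOD1G93A LPS microglia, where the other markers summed to at most 15.3 CPM, 24.0 to 29.6 CPM and 13.4 to 23.2 CPM in turn. *Cspg4* is also among the oligodendrocyte lineage markers and led that list in the 3 microglia groups. The part of these cells in the results below was not tested, and in bulk cultures fewer cells of a type and less RNA per cell cannot be told apart.

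**Figure D1:**
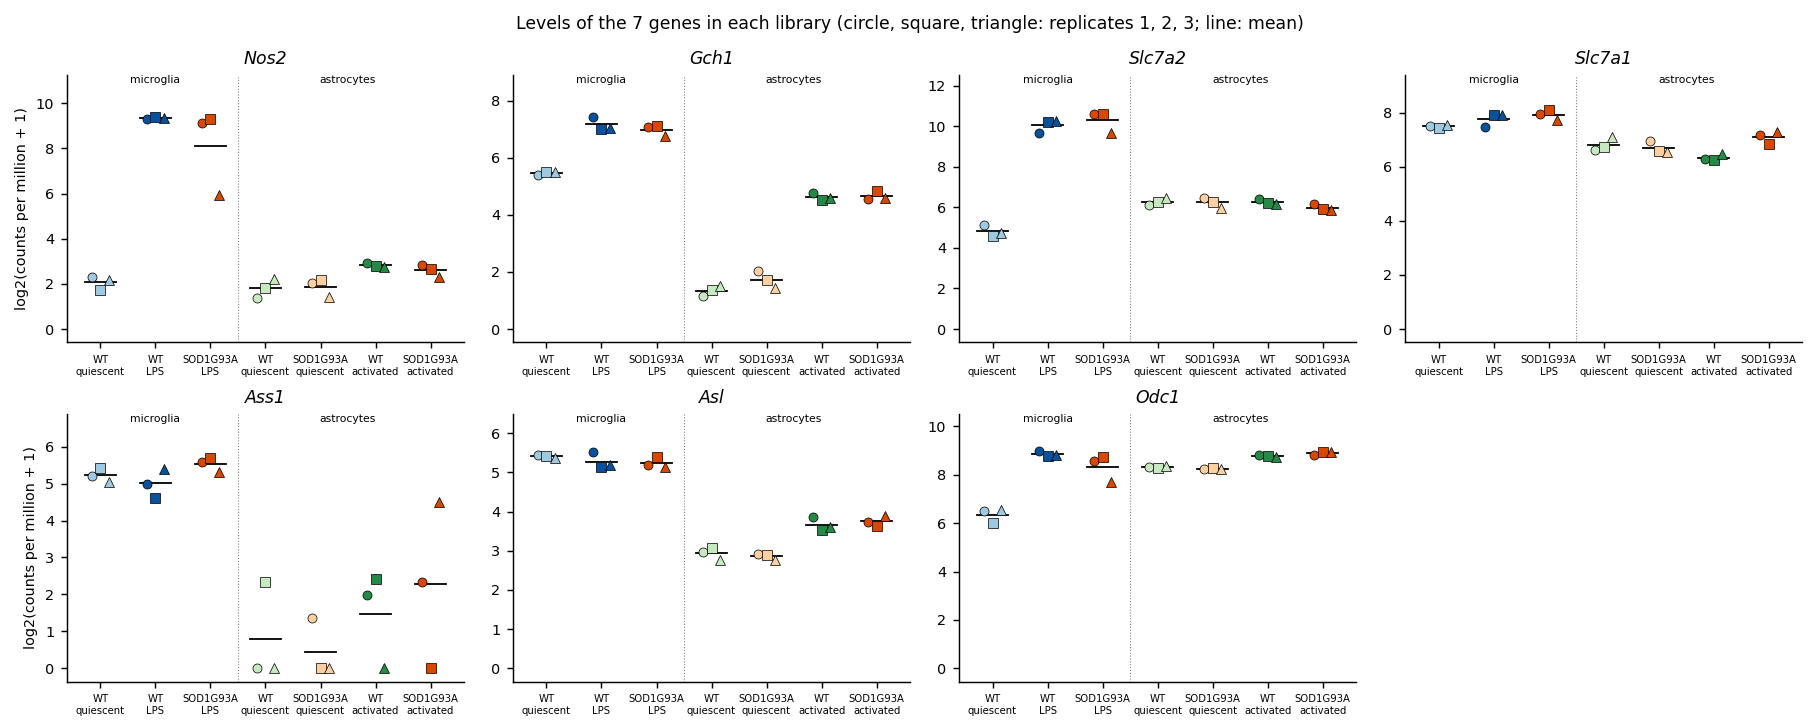
Level of each of the 7 genes in the 21 libraries, as log2(CPM + 1) after joint scaling, by condition. Circles, squares and triangles are replicates 1, 2 and 3 and lines are means, and the triangle of SOD1G93A LPS microglia for *Nos2* lies at 59.5 CPM against 566 and 624 CPM in the other replicates.

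Levels across the 7 conditions were compared in CPM after 1 joint scaling of the 21 libraries. *Nos2* was highest in WT LPS microglia (654 ± 21.7 CPM, SD, n = 3), followed by SOD1G93A LPS microglia (416 ± 310) and WT activated astrocytes (6.11 ± 0.492). The other 4 conditions had means between 2.58 and 5.12 CPM, and each overlapped its neighbour in the order. *Slc7a2* was highest in the LPS microglia groups, which overlapped each other, at 1308 ± 426 CPM in SOD1G93A and 1067 ± 215 CPM in WT, and lowest in quiescent WT microglia at 27.6 ± 6.02 CPM. Between them the quiescent and the WT activated astrocyte groups overlapped at means of 75.5 to 76.3 CPM, and SOD1G93A activated astrocytes (62.3 ± 6.25) overlapped the quiescent groups but not the WT activated group on this scale. *Gch1* ran from 144 ± 24.9 CPM in WT LPS microglia, which overlapped SOD1G93A LPS microglia, through quiescent WT microglia (43.4 ± 2.19) and the overlapping activated astrocyte groups (24.3 ± 2.93 in SOD1G93A, 23.9 ± 2.25 in WT) to the overlapping quiescent astrocyte groups (2.35 ± 0.685 and 1.54 ± 0.306).

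*Asl* was highest in the 3 microglia groups, which overlapped at means of 37.2 to 41.7 CPM, lower in activated astrocytes (12.5 ± 1.22 in SOD1G93A, 11.8 ± 1.67 in WT) and lowest in quiescent astrocytes (6.70 ± 0.876 in WT, 6.27 ± 0.419 in SOD1G93A). The genotypes overlapped in each of these astrocyte pairs.

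*Slc7a1* ran from SOD1G93A LPS microglia (244 ± 30.4 CPM) and WT LPS microglia (221 ± 38.8), which overlapped, and quiescent WT microglia (181 ± 5.28), which overlapped the latter, to the astrocytes. There SOD1G93A activated (139 ± 21.4), WT quiescent (113 ± 20.3) and SOD1G93A quiescent (103 ± 16.5) overlapped in turn, and WT activated (80.6 ± 7.22) was lowest and apart. *Odc1* was lowest in quiescent WT microglia (81.7 ± 16.1 CPM) and highest in SOD1G93A activated astrocytes (479 ± 22.5), whose range overlapped WT LPS microglia (468 ± 37.9). Between them came WT activated astrocytes (437 ± 9.96), which also overlapped WT LPS microglia, and SOD1G93A LPS microglia (335 ± 112). WT quiescent astrocytes (319 ± 6.83) and SOD1G93A quiescent astrocytes (303 ± 8.33) followed, and these last 3 groups overlapped in turn. *Ass1* had 45.6 ± 6.07 CPM in SOD1G93A LPS, 36.6 ± 4.82 in quiescent WT and 32.0 ± 8.96 in WT LPS microglia, which overlapped in turn, and means of 0.524 to 8.57 CPM in the overlapping astrocyte groups.

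Levels of different genes are compared only per kilobase of merged exons. In quiescent WT microglia *Odc1* was highest at 24.0 CPM per kilobase, followed by *Slc7a1* at 15.7 and *Ass1* at 15.1, and *Nos2* was at 0.739. In WT LPS microglia the first were *Nos2* at 148, *Odc1* at 137 and *Slc7a2* at 117 CPM per kilobase, followed by *Gch1* at 23.1. Replicate 1 of that group, which stood apart, had the other order, with *Odc1* at 150 and *Nos2* at 144. In SOD1G93A LPS microglia *Slc7a2* was at 143, *Odc1* at 98.3 and *Nos2* at 94.4. The order of the last pair rests on replicate 3, which had 13.5 for *Nos2* and 61.3 for *Odc1*, while replicates 1 and 2 had 128 and 141 for *Nos2* and 110 and 124 for *Odc1*. In the 4 astrocyte groups *Odc1* was first, at 89.1 to 141 CPM per kilobase, and the next was *Slc7a1* or *Slc7a2*. The place of *Ass1* in these orders depends on how reads were shared with its near copy *Gm5424*, since both together had 387 CPM in quiescent WT microglia where *Ass1* had 36.6.

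With activation of WT astrocytes, all 7 genes passed the filter and 1, *Gch1*, was called, while 11.5% of the 12336 genes tested were called. With LPS in WT microglia, 7 passed and 4 were called (*Nos2*, *Slc7a2*, *Odc1* and *Gch1*), and of all 10866 genes 20.8% were called. Since the choice of genes may have used these contrasts, nothing is read from either share. The median log2 fold change of the genes that passed was 0.83 in astrocytes and 1.78 in microglia, beside 0.01 and 0.00 over all genes tested. For the same reason nothing is read from these medians.

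*Nos2* (chr11:78920787-78960254), the source of inducible nitric oxide, had 16.7, 10.5 and 15.1 normalized counts in quiescent WT microglia and 2766, 3207 and 3007 with LPS. The LPS libraries lay close together and far above the quiescent ones, for a log2 fold change of 7.65 (SE 0.16). In WT astrocytes it had 9.32, 14.4 and 21.3 normalized counts in the quiescent libraries and 39.5, 35.7 and 33.6 in the activated ones. Each activated library was above each quiescent one, and the log2 fold change was 1.28 (SE 0.31). Without quiescent WT astrocyte replicate 3, which had the highest of the quiescent values, it was 1.56. Without replicate 1, which had the lowest, it was 1.00.

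*Gch1* (chr14:47153895-47189413), which makes the cofactor's precursor, had 6.99, 9.18 and 10.7 normalized counts in quiescent and 157, 133 and 136 in activated WT astrocytes. The groups were far apart and tight, with a log2 fold change of 3.86 (SE 0.22). In WT microglia it had 171, 206 and 194 normalized counts when quiescent and 753, 604 and 611 with LPS, a log2 fold change of 1.78 (SE 0.12). On the joint scale quiescent microglia already held more of it than activated astrocytes did, 43.4 against 23.9 CPM.

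*Slc7a2* (chr8:40862396-40922308), a transporter that imports arginine, had 143, 105 and 111 normalized counts in quiescent WT microglia and 3580, 5506 and 5623 with LPS. Replicate 1 was the lowest of the LPS libraries and still far above each quiescent one, and the log2 fold change was 5.33 (SE 0.18), or 5.21 to 5.54 with any 1 library left out. In WT astrocytes it had 387, 438 and 504 normalized counts when quiescent and 495, 434 and 416 when activated. These groups overlapped, with a log2 fold change of 0.02 (SE 0.11, interval -0.23 to 0.27).

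*Slc7a1* (chr5:148327410-148399904), the other arginine transporter, had 561, 608 and 794 normalized counts in quiescent and 456, 454 and 523 in activated WT astrocytes. The groups did not overlap and the log2 fold change was -0.44 (SE 0.13), or -0.29 without quiescent replicate 3. In WT microglia it had 761, 810 and 799 normalized counts when quiescent and 767, 1149 and 1125 with LPS. Only replicate 1 of the LPS group, the library that stood apart, lay within the quiescent range. The log2 fold change was 0.34 (SE 0.14) with it and 0.53 without it. Without LPS replicate 2 or 3 it was 0.23 or 0.25. Over 15 alternatives of processing or of a library left out it was 0.16 to 0.53.

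*Ass1* (chr2:31470207-31520672) and *Asl* (chr5:130011258-130029247) rebuild arginine from citrulline. *Asl* had 39.6, 43.3 and 33.6 normalized counts in quiescent and 81.0, 62.8 and 65.5 in activated WT astrocytes. Its groups did not overlap and the log2 fold change was 0.83 (SE 0.18). In WT microglia its values were 179, 193 and 176 when quiescent and 195, 161 and 164 with LPS, which overlapped (log2 fold change -0.08, SE 0.12).

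The value of *Ass1* depends on how reads were shared with a near copy. The processed pseudogene *Gm5424* (chr10:62071123-62072362) matches the *Ass1* transcript at 99.5% over 1240 of its 1696 bases, and it held most of the reads, 350 CPM against 36.6 CPM for *Ass1* in quiescent WT microglia. In WT astrocytes *Ass1* itself had 0, 23.6 and 0 normalized counts when quiescent and 17.4, 25.7 and 0 when activated, so its reads came and went between replicates. The sum of *Ass1* and *Gm5424*, a quantity chosen after seeing the data, was 58.2, 84.0 and 116 when quiescent and 589, 665 and 623 when activated, with a log2 fold change of 2.90 (SE 0.20). In WT microglia the sum was 1622, 1797 and 1659 when quiescent and 2333, 2052 and 2016 with LPS, with a log2 fold change of 0.33 (SE 0.09). Each activated library of either culture was above each quiescent one for the sum, and the reads do not show from which of the copies they came.

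*Odc1* (chr12:17544794-17551505), the entry to polyamines, had 376, 292 and 397 normalized counts in quiescent WT microglia and 2228, 2079 and 2096 with LPS. The groups did not overlap, with a log2 fold change of 2.60 (SE 0.12). In WT astrocytes it had 1838, 1809 and 1905 normalized counts when quiescent and 2659, 2592 and 2526 when activated, also without overlap, with a log2 fold change of 0.49 (SE 0.08). *Odc1* has processed pseudogenes that match at up to 97.8%. The annotation's copies in the tables held little, at most 7.66 CPM for *AW146154* and 0.180 CPM for *Gm15645*, and the other copies found are not in the tables.

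The difference between the response of WT microglia to LPS and that of WT astrocytes to IL-1α, TNFα and C1q was estimated in a joint fit of 12 libraries. Agent, medium, isolation, age and cell type differ between these cultures and cannot be told apart. Of the 7 genes that passed its filter 6 had an adjusted p under 0.05, beside 39.4% of all 12452 genes, and nothing is read from this. The log2 fold change in microglia minus that in astrocytes was 6.35 (SE 0.37) for *Nos2*, 5.26 (SE 0.25) for *Slc7a2* and 2.06 (SE 0.16) for *Odc1*. It was 0.73 (SE 0.23) for *Slc7a1*, which went up in microglia (0.32) and down in astrocytes (-0.41). It was negative for *Gch1* and *Asl*, at -2.11 (SE 0.24) and -0.95 (SE 0.21). *Ass1* had -1.60 (SE 1.61), an interval of -5.06 to 1.86, and its near copy *Gm5424*, looked at after seeing the data, had -2.70 (SE 0.30).

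**Figure D2:**
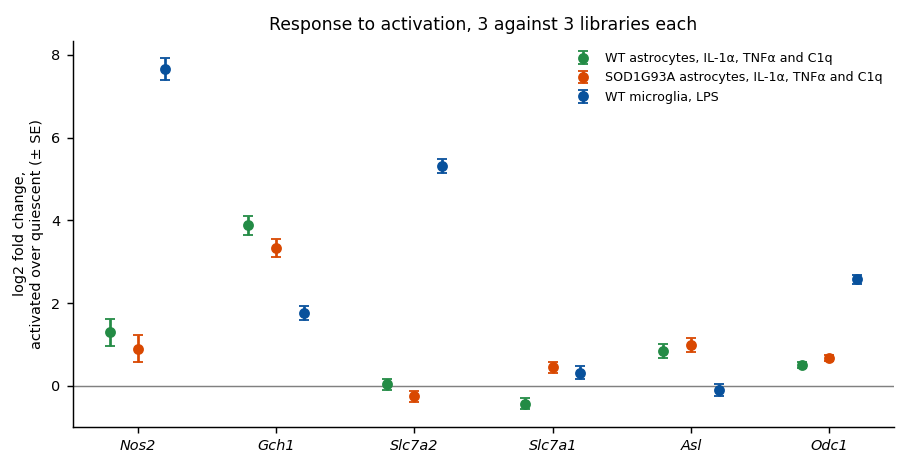
Log2 fold change with activation of 6 genes (y axis, points with SE) in WT microglia with LPS and in WT and SOD1G93A astrocytes with IL-1α, TNFα and C1q, from the joint fits. *Nos2* and *Slc7a2* lie at 7.66 and 5.31 in microglia and at 1.30 and 0.03 in WT astrocytes, while *Gch1* lies at 1.76 in microglia and 3.88 in WT astrocytes.

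Between genotypes the question was whether cells with the transgene differ from WT cells in the same state. In quiescent astrocytes 6 of the 7 genes passed the filter. By limma 0 were called and 0 had an unadjusted p under 0.05, and edgeR also called 0. DESeq2 called 0 of the 4 for which it gave an adjusted p, which leaves out *Nos2* and *Gch1*. Over all 12271 genes limma called 0, or 0%, while DESeq2 called 7, edgeR 0, and 1068 genes had an unadjusted p under 0.05. At an adjusted p under 0.05 limma called 7 genes, 0.057%, edgeR 7 and DESeq2 54. Limma and edgeR called 0 of the 6 and DESeq2 0 of its 4. *Gch1* had the largest log2 fold change of the 6, with 7.37, 9.57 and 11.1 normalized counts in WT and 18.5, 14.2 and 10.4 in SOD1G93A. These values rest on 3, 7 and 20 reads in WT and 35, 21 and 7 in SOD1G93A. The WT mean of 9.33 was below the minimum of 10, so *Gch1* passed the filter through the SOD1G93A libraries. The groups overlapped in replicate 3 of each, and the log2 fold change was 0.55 (SE 0.37, adjusted p 0.692). It was 0.36 without SOD1G93A replicate 1, which stood apart by the chi-square, and 0.75 without SOD1G93A replicate 3. By correlation with its own group replicate 3 was slightly lower than replicate 1. All 17 microglia markers tested in this comparison were also higher in SOD1G93A, with a median log2 fold change of 0.55. Of the astrocyte markers 2 of 11 were higher (median -0.27). The neuronal markers without *Map2* summed to 16.5 to 20.3 CPM in WT and 9.40 to 11.4 CPM in SOD1G93A. The oligodendrocyte lineage markers summed to 2345 to 2415 and 2530 to 2845 CPM in turn. The part of these markers in the value of *Gch1* was not tested. The other 5 of the 6 genes had log2 fold changes of -0.12 to 0.12 with adjusted p from 0.839 to 0.992. Their intervals ran from -0.26 to 0.14 for *Odc1*, the narrowest, to -0.77 to 1.01 for *Nos2*, the widest.

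In activated astrocytes all 7 genes passed the filter and limma called 0 at the stricter rule, as did DESeq2 and edgeR, beside 0.645% of all 12098 genes. Of the 7 genes 3 had an unadjusted p under 0.05, beside 2464 of all genes. At an adjusted p under 0.05, 1 of the 7 was called, *Slc7a1*, beside 7.27% of all genes, and nothing about the 7 as a group is read from 1 gene. *Slc7a1* had 393, 392 and 449 normalized counts in WT and 746, 590 and 808 in SOD1G93A activated astrocytes. Each SOD1G93A library was above each WT library, and the lowest of them was replicate 2. In the same comparison 3 of 17 microglia markers tested were higher in SOD1G93A (median log2 fold change -0.14) and 1 of 6 neuronal markers (median -0.47). Of the astrocyte markers 7 of 10 were higher (median 0.08). Endothelial markers summed to 113 to 130 CPM in WT and 93.9 to 99.2 CPM in SOD1G93A. Pericyte and fibroblast markers without *Cspg4* summed to 39.7 to 47.6 and 28.7 to 33.5 CPM in turn. The part of these markers in the value of *Slc7a1* was not tested. The log2 fold change was 0.79 (SE 0.09, interval 0.59 to 0.98, adjusted p 9.22e-06), which is less than 2-fold. Over 15 alternatives of processing or of a library left out it was 0.69 to 0.92, with adjusted p from 1.13e-12 to 0.000174.

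The other transporter moved the other way in activated astrocytes but missed the looser rule. *Slc7a2* had 426, 375 and 356 normalized counts in WT and 358, 305 and 299 in SOD1G93A libraries, which overlapped. Its log2 fold change was -0.27 (SE 0.09, adjusted p 0.0762), with an adjusted p of 0.0206 when the replicate number was a block and 0.0162 without SOD1G93A replicate 1. By DESeq2 the adjusted p was 0.214, and without WT replicate 1 the log2 fold change was -0.19 with an adjusted p of 0.395. *Odc1* had 2291, 2237 and 2165 in WT and 2339, 2551 and 2502 in SOD1G93A, without overlap. Its log2 fold change was 0.14 (SE 0.06, adjusted p 0.163), and 0.18 with an adjusted p of 0.0423 without SOD1G93A replicate 1. With any other library left out it was 0.12 to 0.16 with adjusted p from 0.278 to 0.371. Over 15 alternatives of processing or of a library left out it was 0.08 to 0.18, with adjusted p from 0.0423 to 0.45. *Nos2*, *Gch1* and *Asl* overlapped between genotypes, with log2 fold changes of -0.25, 0.03 and 0.10 and adjusted p of 0.608, 0.923 and 0.788. With a library left out the log2 fold change was -0.38 to -0.09 for *Nos2* and 0.03 to 0.21 for *Asl*.

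*Ass1* had 14.95, 22.2 and 0 normalized counts in WT and 20.8, 0 and 112 in SOD1G93A activated astrocytes, a log2 fold change of 0.91 (SE 1.17, adjusted p 0.73). The sum of *Ass1* and *Gm5424*, chosen after seeing the data, had 508, 574 and 534 in WT and 419, 386 and 409 in SOD1G93A. The sum was lower in each SOD1G93A library, with a log2 fold change of -0.41 (SE 0.07, adjusted p 0.000966), while *Ass1* alone was -0.51 without WT replicate 3, -0.62 without SOD1G93A replicate 3 and 2.79 without SOD1G93A replicate 2. The direction for *Ass1* thus turned with the handling of the copy and with single libraries.

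**Figure D3:**
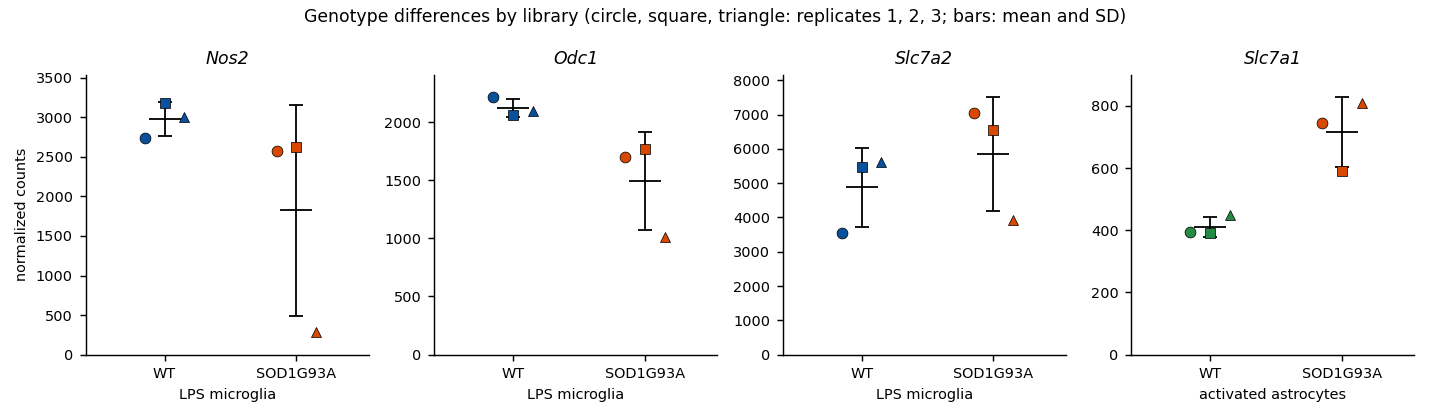
Normalized counts (y axis) of *Nos2*, *Odc1* and *Slc7a2* in LPS microglia and of *Slc7a1* in activated astrocytes, WT beside SOD1G93A, with each library as a point and bars for the mean and SD. *Slc7a1* spans 392 to 449 in WT and 590 to 808 in SOD1G93A, and 1 SOD1G93A library of *Nos2* lies at 287.

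Whether the astrocyte response to IL-1α, TNFα and C1q differed by genotype was tested as an interaction in the 12 astrocyte libraries. Of the 7 genes that passed its filter limma called 0 at an adjusted p under 0.05, edgeR called 0, and 1, *Slc7a1*, had an unadjusted p under 0.05. Over all 12413 genes 24 were called, or 0.193%, and 1032 had an unadjusted p under 0.05. *Slc7a1* had a response of -0.43 in WT and 0.44 in SOD1G93A astrocytes (log2, SE 0.14 each), a difference of 0.87 (SE 0.19, interval 0.47 to 1.28, adjusted p 0.0843). Without quiescent WT replicate 1 the difference was 1.01 (adjusted p 0.0289) and without quiescent SOD1G93A replicate 1 it was 1.00 (adjusted p 0.0277). Over 18 alternatives it was 0.73 to 1.01, with adjusted p from 0.0277 to 0.298. The same fit gave the response of SOD1G93A astrocytes themselves, where 1 of the 7 genes, *Gch1*, was called (log2 fold change 3.33, SE 0.22), beside 13.2% of all genes. The difference in the response of *Gch1* was -0.55 (SE 0.32, adjusted p 0.669). For *Ass1* it was 1.33 (SE 2.37, adjusted p 0.918) and for *Gm5424*, looked at after seeing the data, -0.98 (SE 0.31, adjusted p 0.339). This comparison and those above share libraries, so their values are not independent.

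In LPS microglia all 7 genes passed the filter. Limma, DESeq2 and edgeR each called 0 of them at the stricter rule, and 2, *Ass1* and *Odc1*, had an unadjusted p under 0.05. Over all 10679 genes limma called 0, or 0%, DESeq2 called 3, edgeR 0, and 930 had an unadjusted p under 0.05. At an adjusted p under 0.05 limma called 0 of the 7 and 1 gene of all, 0.00936%. DESeq2 and edgeR also called 0 of the 7, and of all genes DESeq2 called 12 and edgeR 1.

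*Nos2* in LPS microglia had 2746, 3181 and 3007 normalized counts in WT and 2571, 2621 and 287 in SOD1G93A libraries. Replicate 3 was far below the other SOD1G93A libraries, which lay just under the lowest WT library. The log2 fold change was -1.25 (SE 0.72, adjusted p 0.591), and -0.20 (SE 0.09, adjusted p 0.893) without that library. *Odc1* had 2212, 2062 and 2097 in WT and 1703, 1768 and 1008 in SOD1G93A libraries, again with replicate 3 lowest and without overlap. Its log2 fold change was -0.55 (SE 0.20, adjusted p 0.571), and -0.29 (adjusted p 0.855) without that library. In the same comparison 14 of 18 microglia markers tested were higher in SOD1G93A (median log2 fold change 0.15). Of the astrocyte markers 3 of 9 were higher (median -0.19), and of the border macrophage and monocyte markers 1 of 4 (median -0.45). The part of these markers in the values of the pathway genes was not tested.

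*Slc7a2* had 3555, 5461 and 5623 in WT and 7045, 6548 and 3940 in SOD1G93A LPS microglia, where replicate 3 fell within the WT range. Its log2 fold change was 0.25 (SE 0.25, adjusted p 0.75), 0.51 without that library and 0.03 (adjusted p 0.969) without WT replicate 1, which also stood apart. *Ass1* had 134, 111 and 191 in WT and 212, 215 and 189 in SOD1G93A libraries, an overlap by replicate 3 of each, with a log2 fold change of 0.53 (SE 0.19, adjusted p 0.571). The sum with *Gm5424*, chosen after seeing the data, had 2317, 2035 and 2016 in WT and 2436, 2294 and 3619 in SOD1G93A libraries, where replicate 3 was far the highest, and gave 0.36 (SE 0.17, adjusted p 0.577). *Gch1*, *Slc7a1* and *Asl* overlapped between genotypes, with log2 fold changes of -0.20, 0.14 and -0.04.

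The other genes of the pathway were a list of 51, of nitric oxide signalling, tetrahydrobiopterin, ornithine, proline and creatine, cationic amino acid transport and polyamines. This list too was chosen with earlier results of these data known. Its adjusted p-values therefore describe single genes and support no statement about the list. In activated against quiescent WT astrocytes 39 were tested, 2 were called higher and 2 lower, beside 11.5% of all genes called, so nothing about the list is read from the count. *Slc3a2*, the heavy chain that pairs with several amino acid transporters, went from 1067, 1168 and 1274 to 2844, 2604 and 2419 normalized counts (log2 fold change 1.16, adjusted p 3.57e-06). *Sat1*, which acetylates polyamines for breakdown or export, went from 119, 115 and 103 to 297, 310 and 280 (1.39, adjusted p 2.19e-06). Both were higher in all 3 activated libraries.

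The 2 that fell in WT astrocytes were both enzymes of creatine synthesis. *Gatm*, which uses arginine to make guanidinoacetate, fell from 540, 640 and 573 to 188, 284 and 208 (-1.38, adjusted p 1.89e-05). *Gamt*, the next step, fell from 212, 220 and 178 to 58.8, 61.3 and 65.5 (-1.70, adjusted p 2.21e-06). In each the quiescent and activated libraries did not overlap.

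In WT microglia with LPS 34 of the list were tested, 2 were called higher and 4 lower, beside 20.8% of all genes called. Again nothing about the list is read from the count. The count of 6 was 3 without quiescent replicate 1 or without quiescent replicate 2, and 4 to 7 with any other library left out. *Slc3a2* rose from 3415, 3297 and 3323 to 11246, 10845 and 10356 normalized counts (log2 fold change 1.69, adjusted p 1.75e-08). *Smox*, which oxidizes spermine, rose from 704, 795 and 738 to 1902, 1667 and 1677 (1.23, adjusted p 8.26e-07). Both were higher in all 3 LPS libraries.

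The 4 that fell with LPS are given as single genes. *Gamt* fell from 35.5, 48.4 and 41.6 to 8.08, 7.38 and 9.12 normalized counts (log2 fold change -2.21, adjusted p 2.84e-05). *Slc18b1*, a vesicular polyamine transporter, fell from 52.3, 50.5 and 59.0 to 7.34, 8.60 and 18.2 (-2.25, adjusted p 0.000141). None of these groups overlapped. Every LPS value of *Gamt* was below 10, the minimum mean of the filter, so *Gamt* passed it through the quiescent libraries. The LPS values 7.34 and 8.60 of *Slc18b1* were below that minimum too. The sizes of these falls thus rest on low LPS values. *Ddah2*, of the family that breaks down inhibitors of nitric oxide synthase, fell from 69.0, 94.7 and 58.3 to 17.6, 16.0 and 27.3 (-1.82, adjusted p 0.00014). *Qdpr*, which regenerates tetrahydrobiopterin, fell from 125, 179 and 124 to 73.4, 70.1 and 53.4 (-1.10, adjusted p 0.000483). The median log2 fold change of the list was 0.07 in astrocytes and -0.32 in microglia, beside 0.01 and 0.00 over all genes. Nothing about the list is read from these medians.

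Between genotypes 0 genes of the list were called by limma, DESeq2 or edgeR in any of the 3 comparisons. At an unadjusted p under 0.05 there were 5 of 39 in quiescent astrocytes, 8 of 38 in activated astrocytes and 4 of 33 in LPS microglia, beside 1068 of 12271, 2464 of 12098 and 930 of 10679 genes of all. At an adjusted p under 0.05 limma called 3 in activated astrocytes, beside 7.27% of all genes, and DESeq2 and edgeR 2 each, and nothing about the list is read from these counts. The 3 by limma were *Atp13a3* (0.25, adjusted p 0.0123), a polyamine transporter, *Aldh18a1* (0.28, adjusted p 0.0188), an enzyme of proline and ornithine synthesis, and *Gatm* (0.40, adjusted p 0.0474), all higher in SOD1G93A on the log2 scale and named after their values were seen. The libraries of *Gatm* overlapped and those of the other genes did not.

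Genes with the pattern most like each of the 7 were searched among 11070 genes that reached 10 CPM in a condition. The log2 condition means of each gene were first centred on their own mean over the 7 conditions. Genes were ranked by the mean absolute log2 difference of these centred values, so the shape was compared and not the level. For *Nos2* the genes most like it were *Saa3* (0.277), *Cd40* (0.280) and *Ptges* (0.282). For *Gch1* they were *Cebpb* (0.159), *Junb* (0.251) and *Icam1* (0.277). For *Slc7a2* they were *Zfp811* (0.233), *Cish* (0.290) and *Hilpda* (0.362). For *Slc7a1* they were *Gars* (0.116), *Phf13* (0.129) and *Rce1* (0.131), and for *Asl* *Pdlim7* (0.0911), *Aldoa* (0.109) and *Rnasek* (0.109). For *Odc1* they were *Stoml1* (0.162), *Tmc7* (0.185) and *Palld* (0.187). For *Ass1* they were *Tor4a* (0.325), *Hmox1* (0.336) and *Shisa5* (0.357), where *Ass1* itself had few reads in astrocytes.

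Promoter windows, 250 bases before to 50 after a gene's start, were read from RefSeq on GRCm38.p6 for 4 of the 7 genes, *Ass1*, *Slc7a1*, *Odc1* and *Gch1*, in 5 windows. *Nos2*, *Asl* and *Slc7a2* had no entry in the promoter table used here. The windows of *Gch1* and *Odc1*, which were higher with activation in both WT cultures, are printed to show the letters searched. The motifs were searched on both strands, and the share of the 32851 promoters of the table that hold each is given in brackets. They were the NF-kB consensus (8.46%), TATAAA (13.6%), CACGTG (7.15%), TGACGTCA (1.79%), TTCNNNGAA (8.3%), GAAANNGAA (8.56%) and TGATGNAA (3.97%). Capitals mark matches. The *Gch1* window (chr14:47189364-47189663, minus strand) matched the NF-kB consensus at bases 241 to 250 on both strands, and TATAAA on the reverse strand at bases 63 to 68. The *Odc1* window (chr12:17544623-17544922, plus strand) held none of these letters.
Gch1: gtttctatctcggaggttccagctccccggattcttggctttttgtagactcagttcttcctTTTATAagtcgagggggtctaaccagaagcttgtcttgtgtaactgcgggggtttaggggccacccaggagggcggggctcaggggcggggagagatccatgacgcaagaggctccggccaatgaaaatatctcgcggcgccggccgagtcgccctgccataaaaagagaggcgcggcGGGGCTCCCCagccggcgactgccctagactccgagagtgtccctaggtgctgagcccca
Odc1: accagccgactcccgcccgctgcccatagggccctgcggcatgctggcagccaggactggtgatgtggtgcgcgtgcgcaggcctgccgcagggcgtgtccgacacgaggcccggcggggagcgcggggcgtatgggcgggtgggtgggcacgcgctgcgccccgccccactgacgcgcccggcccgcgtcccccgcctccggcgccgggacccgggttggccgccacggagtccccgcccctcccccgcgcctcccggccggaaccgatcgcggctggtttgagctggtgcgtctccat
The *Ass1* window held CACGTG, and of the *Slc7a1* windows the second held TATAAA and TTCNNNGAA and the first none. A match is a description of letters and not a site in use.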

How the data were processed

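The authors aligned reads of strand-specific, polyA-enriched libraries to mm10 with STAR, counted them with RSEM and ran DESeq2. The deposited unit used here is signal: per-library normalized counts, which are reads divided by a size factor, and not raw counts. The authors' fold change and p columns were not used. Reads were recovered from the step size of each column, and 100% of values were whole (tolerance 0.01). The genes and all lists were chosen with earlier results of these data known. Within each table of 6 libraries, limma 3.58.1 (R 4.3.3, intensity trend) was fitted on log2(normalized count + 1) to genes with a mean of at least 10, with Benjamini-Hochberg adjustment over all genes. DESeq2 1.42.0 and edgeR 4.0.16 were run on recovered reads. Interactions and levels used recovered reads of several tables with TMM scaling. The table of SOD1G93A LPS against quiescent WT microglia, where both genotype and state differ, was used for that recovery and not for a comparison. The 7 genes are named, with pathway genes that passed both limits and the 3 genes most like each member. Alternatives were other pseudocounts, filters and scalings, other tools, the replicate number as a block, and each library left out. The model was tested on simulated data. Positions are from GENCODE M21 on GRCm38, matched to 23376 of 24411 symbols. Near copies were searched with blastn 2.17.0, at a minimum of 90% identity over 200 bases. Of the 9 genes chosen 2, and 1 pathway gene, are not reported here. Lists were the 51 other pathway genes and markers of microglia, astrocytes, oligodendrocyte lineage, endothelial cells, pericytes and fibroblasts, neurons, and border macrophages and monocytes. Promoters are from RefSeq on GRCm38.p6.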

Additional observations from a re-analysis of the deposited data

Results flagged for a closer look

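For 6 genes the change with LPS in WT microglia and the change with IL-1α, TNFα and C1q in WT astrocytes lay apart in the joint fit of 12 libraries, with an adjusted p under 0.05 for the interaction term. The difference in log2 fold change, microglia minus astrocytes, was 6.35 for *Nos2*, 5.26 for *Slc7a2*, 2.06 for *Odc1* and 0.73 for *Slc7a1*, and it was -2.11 for *Gch1* and -0.95 for *Asl*. This is a description and not read as a test, since these genes were chosen with such results known, and agent, medium, isolation, age and cell type cannot be told apart. Groups of 3 libraries were not tested for outliers.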

How the results depend on the processing

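Of 1086 values under other settings, 1047 stayed the same, 18 reversed, 19 moved and 2 became stronger. The sum of *Ass1* and *Gm5424*, chosen after seeing the data, is not in these counts. Staying the same means the same direction and side of the threshold for a tested value, a shift of less than the SD between replicates for the changes with activation in WT cultures, and within 1.5 times for a count. The threshold is the stricter rule within a table and an adjusted p under 0.05 for interactions, so *Slc7a2* and *Odc1* in activated astrocytes stayed the same although without SOD1G93A replicate 1 their adjusted p of 0.0762 and 0.163 became 0.0162 and 0.0423. So a WT value near 0 could change sign and stay the same: *Slc7a2* in WT astrocytes, at 0.02, was -0.00573 by DESeq2, -0.00272 by edgeR, -0.02 with quantile scaling and -0.07 to 0.12 with a library left out, and *Ass1* in WT microglia, at -0.16, was -0.37 to 0.02 with a library left out. The cause of the changes below was not tested unless the alternative itself shows it. In WT astrocytes the genes of the 7 called went from 1 to 0 with at least 10 in every library, which removes *Gch1*, and to 2 with *Ass1* and *Gm5424* summed. They were 1 to 2 with a library left out. In WT microglia 6 pathway genes were called, and 3 to 7 with a library left out. DESeq2 called 7 genes of all between quiescent astrocytes and 3 between LPS microglia, where limma called 0. For the astrocyte interaction the replicate number as a block called 15 genes in place of 24. With a library left out, 12 to 53 were called of all genes and 0 to 1 of the 7.

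Reversed values were mostly near 0. In quiescent astrocytes between genotypes *Slc7a2* was 0.00139 with TMM and 0.0132 with quantile scaling and *Nos2* was -0.00227 with quantile scaling, all as log2 fold changes. With a library left out *Nos2* ranged from -0.16 to 0.42, *Asl* from -0.176 to 0.00525, *Slc7a1* from -0.237 to 0.0266 and *Slc7a2* from -0.12 to 0.12. In activated astrocytes *Gch1* ranged from -0.0610 to 0.108 and *Ass1* from -0.62 to 2.79, and *Ass1* was -0.41 when summed with *Gm5424*, chosen after seeing the data. In LPS microglia *Asl* ranged from -0.0889 to 0.0477 and *Slc7a1* from -0.0489 to 0.241, and in the astrocyte interaction *Ass1* ranged from -0.26 to 3.31.

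With the replicate number as a block, *Slc7a1* in activated astrocytes had an adjusted p of 1.13e-12. The labels do not say whether libraries of the same number shared more than that number. The correlation of their deviations was -0.436 to 0.0587 over the 15 pairs, so no pairing was used. In astrocytes *Ass1* had 0 to 55 reads per library, and its value depends on how reads were shared with *Gm5424*. A gene that a filter or a library left out took below the minimum has no value there.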
